A study of Mus musculus with 19 samples.

Results

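The genes described here are 9 myelin genes, Mbp, Mog, Mag, Mobp, Cnp, Mal, Cldn11, Ermn and Opalin, measured by RNA sequencing in the microdissected CA1 region of the mouse hippocampus. They were taken by name: a gene belongs to the set if its Ensembl identifier carries one of these symbols in the GENCODE M21 annotation. All 9 were found among the 48709 genes of the count files, and all 9 were among the 19297 genes tested, that is, those that reached 5 counts in 50% or more of the libraries.

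The study asked whether blocking 3 microRNAs in the hippocampus changes gene expression in a mouse model of amyloid deposition. The mice were 7 months old and came from the APPPS1-21 line, which carries human mutant transgenes, APP among them, under the neuronal Thy1 promoter, or were their wild-type littermates. Every group received lipid nanoparticles into the dorsal hippocampus, so the injection itself was shared by all 3 groups. WT control (n = 6) was wild-type mice and APP control (n = 6) transgenic mice, both described by the study as given a scrambled control oligonucleotide, although the titles of the WT libraries also carry the words anti-miR-mix. APP anti-miR-mix (n = 7) was transgenic mice given inhibitors of 3 microRNAs, whose sequences follow. No wild-type group labelled as given the inhibitors alone was analysed here, so the effect of the mix could be read only within transgenic mice. The labels number the libraries within a group and do not say whether each is a separate animal, so the p-values measure the spread between libraries.

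Myelin is the stack of membrane that oligodendrocytes wrap around axons in the brain and spinal cord. Its dry mass is mostly lipid, and a small number of proteins, made in very large amounts, hold its layers together. In CA1 the pyramidal cell bodies form a thin layer, while myelinated axons run mainly in the alveus and the outer stratum lacunosum-moleculare. In bulk tissue, fewer oligodendrocytes and less myelin RNA per oligodendrocyte cannot be told apart.

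The treatment was defined by short sequences, which are shown because the question for each member is whether its transcript carries a match to them. The mature microRNAs (RefSeq, GRCm38.p6), with the seed in capitals, were
miR-181a-5p: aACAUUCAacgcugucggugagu
miR-146a-5p: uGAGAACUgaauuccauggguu
miR-148a-3p: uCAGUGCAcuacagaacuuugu
The inhibitors, with the bases that face the seed in capitals, were
inhibitor of miR-181a-5p: actcaccgacagcgtTGAATG
inhibitor of miR-146a-5p: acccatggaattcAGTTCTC
inhibitor of miR-148a-3p: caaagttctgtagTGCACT
and the control oligonucleotide listed for inhibitors was
control: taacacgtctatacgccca
Each inhibitor was the exact reverse complement of its microRNA over 19 to 21 bases and covered 6 or 7 of the 7 seed bases. The longest annotated 3′ UTR of each member was searched for the complement of the seed. For miR-181a-5p (TGAATGT), 1 of the 9 members held a match, where 18.1% of 15398 tested genes did. For miR-146a-5p (AGTTCTC) and miR-148a-3p (TGCACTG), 0 of 9 held a match, where 12.4% and 14.9% of genes did. This match was in Opalin, at bases 1096 to 1102 of a 3′ UTR of 1330 bases:
Opalin: agatccaccTGAATGTggccca
A seed match is a description of the letters and does not show that a site is used. Of the 1830 genes in lists of predicted microRNA targets, 0 were members, so Opalin was not in them.

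The promoters of Mobp and Opalin are shown because these genes parted furthest in the counts, as described below. The windows run from 250 bases before to 50 bases after the start (RefSeq, GRCm38.p6). Capitals mark ACAAAG on either strand, the core of the sequence bound by SOX proteins such as SOX10, which oligodendrocytes need to make myelin. Mobp (chr9:120149492-120149791, plus strand) and Opalin (chr19:41077064-41077363, minus strand) read
Mobp: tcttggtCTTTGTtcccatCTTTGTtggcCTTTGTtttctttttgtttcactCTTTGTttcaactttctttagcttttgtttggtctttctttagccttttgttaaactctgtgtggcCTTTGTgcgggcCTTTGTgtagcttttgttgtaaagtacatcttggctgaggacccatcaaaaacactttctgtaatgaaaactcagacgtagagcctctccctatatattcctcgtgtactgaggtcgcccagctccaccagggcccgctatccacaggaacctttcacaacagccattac
Opalin: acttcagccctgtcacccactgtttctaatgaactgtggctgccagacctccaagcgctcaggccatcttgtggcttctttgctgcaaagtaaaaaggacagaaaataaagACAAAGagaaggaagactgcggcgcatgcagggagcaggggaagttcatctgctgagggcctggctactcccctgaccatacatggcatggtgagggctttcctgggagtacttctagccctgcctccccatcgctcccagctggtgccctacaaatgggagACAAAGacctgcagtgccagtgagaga
Mobp held 6 ACAAAG matches, and no other of the 32851 windows in the promoter table held as many. Opalin held 2, and 2.37% of windows, Opalin included, held at least as many. At least 1 match was present in 18.7% of windows. Of the other members with a window examined, Mag and Cnp held 1 match, and Mog, Mal, Cldn11 and Ermn held none. CTGGCAC or CTGGTAC, the letters bound by MYRF, the factor that switches on myelin genes, were found once in each of Mag, Cnp, Mog and Opalin, against 7.10% of windows. ACAATG occurred only in Ermn (12.6% of windows), CAGCTG only in Opalin (16.3% of windows) and TATAAA in none of the 8 members (13.6% of windows), both strands searched. A window without a match says only that these letters are not in it.

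The libraries held 19362343 to 37018917 counts. The CA1 marker Wfs1 was at 2748 to 10090 normalized counts and Fibcd1 at 2623 to 11298, so pyramidal cell RNA was present in every library. Of the Schwann cell genes, Pmp2 was at 0 raw counts in all 19 libraries, while Ncmap was at 12.9 to 33.7 normalized counts, Egr2 at 32.5 to 144, Prx at 59 to 136 and Pmp22 at 638 to 1406. Other cells also express Pmp22 and Egr2, and the part of Schwann cell RNA in the results was not tested. Counts were normalized with the size factors of DESeq2, and group comparisons come from a DESeq2 model over the 19 libraries with Benjamini-Hochberg adjustment over all 19297 genes, unless another test, model or set of libraries is named.

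The 9 members together made up 0.58% of the normalized counts in APP anti-miR-mix, 0.62% in APP control and 0.60% in WT control, with a range over single libraries of 0.35% to 0.78%. Per kilobase of annotated exon, Mbp, which binds the cytoplasmic faces of the membrane together, was the most abundant at 11925 ± 2361 normalized counts per kb in WT control (SD, n = 6). Mobp, a second small basic protein of the compact layers, followed at 4912 ± 891, and Mbp lay above it in every library with no overlap of the ranges in any group. Cnp, an enzyme anchored in the non-compact cytoplasm, stood at 3831 ± 760, and Mal, a membrane lipid raft protein, at 3115 ± 566. Cldn11, which builds the tight junctions of the sheath, stood at 2416 ± 447. Mag, the adhesion protein that faces the axon, was at 2022 ± 467, and Mog, the outermost surface protein, at 1460 ± 305. Ermn, which organizes the actin of late processes, was at 682 ± 141 and Opalin, a transmembrane protein of the oligodendrocyte paranodal region, was lowest at 389 ± 89.0. The same order by mean held in the other 2 groups. Most neighbours in this order overlapped in range, but within a library the order held in all 6 WT control libraries for all 8 neighbouring pairs. Its exceptions were Cnp and Mal, in order in 5 of 6 APP control libraries, and Mal and Cldn11, in order in 5 of 7 APP anti-miR-mix libraries.

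None of the 9 members passed the test between APP control and WT control. By DESeq2, 0 of 9 passed an adjusted p of 0.05, where 4.71% of all genes tested did (908 of 19297). No member reached an unadjusted p of 0.05, where 2644 genes did, and the edgeR quasi-likelihood test and limma on the deposited log2 table each also called 0 of 9, with 0 of 9 at an unadjusted p under 0.05. The edgeR test called 3.22% of all genes, with 2593 at an unadjusted p under 0.05, and limma called 1016 of 18825 genes, with 3246 at an unadjusted p under 0.05. No member had groups that did not overlap, where 1.57% of genes did. The median log2 fold change of the members was -0.02 beside -0.01 for all genes. Mbp was at 74562, 95782 and 129430 normalized counts (lowest, median, highest) in WT control and at 67630, 105489 and 128870 in APP control. The groups overlapped almost fully, with a log2 fold change of 0.02 ± 0.17 (SE) and an adjusted p of 0.99 in DESeq2. Mobp had the highest estimate, 0.15 with a 95% interval of -0.17 to 0.47, from 24445, 34324 and 42398 in WT control to 28272, 38774 and 40724 in APP control. Opalin had the lowest estimate and the widest interval, -0.13 with bounds of -0.67 and 0.41, from 780, 1137 and 1498 to 306, 1138 and 1416. The medians of Opalin in these groups lay close together, and APP control 5 held the count of 306 where the other 5 libraries held 1042 to 1416. Without that library its estimate was 0.06. The narrowest interval was that of Mal, from -0.32 to 0.28.

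Comparing APP anti-miR-mix with APP control, none of the 9 members passed the test either. DESeq2 called 0 of 9 members and 0% of all genes (0 of 19297; 552 genes were at an unadjusted p under 0.05, none of them a member). The edgeR test called 0 genes too, with 572 at an unadjusted p under 0.05 and again no member among them. The estimates were below 0 for 8 of 9 members, with a median of -0.10 beside 0.00 for all genes, but this count depended on the model and the libraries. With the oligodendrocyte level described below as a term, 4 of 9 were below 0 and the median was 0.01. With group alone, 5 of 9 were below 0 without APP anti-miR-mix 7 (median -0.02) and 9 of 9 without APP control 5 (median -0.19). In the latter fit 1 member was at an unadjusted p under 0.05 in DESeq2, where 479 of 19399 genes were. With group alone and all 19 libraries, Mobp had the lowest estimate, -0.23 with a 95% interval of -0.54 to 0.07, from 28272, 38774 and 40724 to 19296, 34176 and 42295. Cldn11 had the highest, 0.03 with an interval of -0.30 to 0.35, from 3724, 5161 and 5847 to 3332, 4996 and 6996. The highest library of APP anti-miR-mix lay above every APP control library for Mog, Mobp, Mal and Cldn11, and the lowest lay below every APP control library for Mbp, Mobp, Mal, Cldn11 and Ermn, so the groups overlapped for every member, where 0.0207% of all genes did not overlap. Opalin, the gene with a miR-181a-5p seed match, had an estimate of -0.15 with an interval of -0.67 to 0.38, and of -0.34 without APP control 5 (DESeq2 adjusted p = 1.0).

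APP anti-miR-mix against WT control, which combines genotype and treatment and shares its WT libraries with the first comparison, also called 0 of 9 members, where DESeq2 called 8.95% of all genes (1727 of 19297). No member reached an unadjusted p of 0.05 in DESeq2, edgeR or limma, where 3742, 3591 and 4316 genes did. The edgeR test called 6.06% of all genes and limma 1834 of 18825. The median was -0.15 beside -0.02 for all genes. Opalin was lowest, at -0.27 with an interval of -0.79 to 0.25, from 780, 1137 and 1498 normalized counts to 612, 931 and 1249. Cldn11 was the only member above 0, at 0.15 with an interval of -0.17 to 0.48, from 3340, 4779 and 5377 to 3332, 4996 and 6996. Without APP anti-miR-mix 7, 4 of 9 members were above 0 (median -0.06), and without WT control 1, 3 of 9 were (median -0.03). Leaving out any other single library did not change the count. The groups overlapped for every member, where non-overlap was found for 3.42% of all genes.

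**Figure D1:**
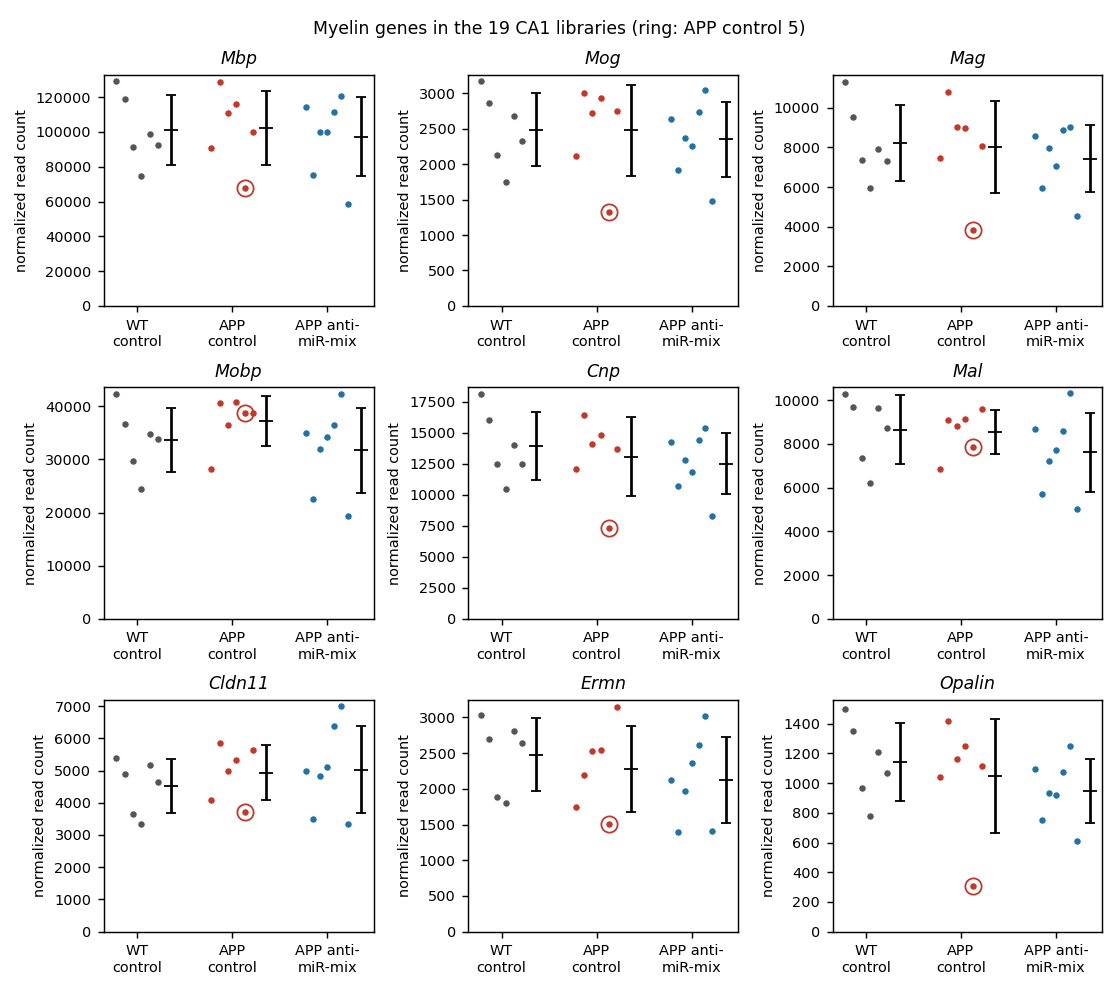
Normalized read count of each myelin gene (y axis, linear, from 0) in the 19 libraries, as points by group in order of replicate number, with the group mean and SD beside them in black. The 3 groups overlap for all 9 genes, and the ringed library APP control 5 is at the bottom of its group for 7 of them, at 306 for Opalin, but not for Mobp (38828) or Mal (7848).

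The spread between libraries of a group was wide and was shared by the members. The within-group SD of log2 counts was 0.29 for Mal to 0.54 for Opalin (0.27 for Cnp to 0.36 for Ermn, with Opalin at 0.31, without APP control 5), where the median of 6148 genes with a mean of at least 1000 normalized counts was 0.12. Between 94.8% and 99.7% of those genes had a smaller SD than a given member. The mean of the 9 members differed 2.05-fold between the lowest and the highest library of APP anti-miR-mix, 1.92-fold within APP control and 1.75-fold within WT control.

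In WT control the order of the libraries was nearly the same for every gene. WT control 1 held the highest count of all 9 members, and WT control 4 the lowest count of all 9. In APP anti-miR-mix, library 6 held the highest count of 9 members and library 7 the lowest of 8. Mog, for example, was at 3044 in APP anti-miR-mix 6 and 1481 in APP anti-miR-mix 7. After the group mean was subtracted from each library, the 36 pairs of members correlated with a median Pearson r of 0.86 over the 19 libraries, from 0.47 for Opalin with Mobp to 0.99 for Cnp with Mag. These values are descriptions, since the points share library depth and the dissected piece.

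**Figure D2:**
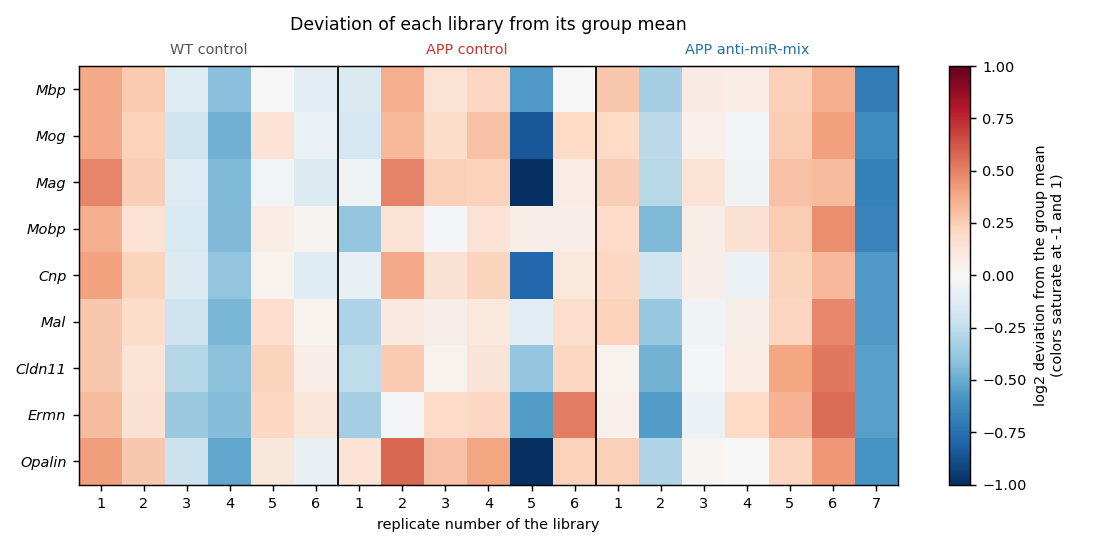
Deviation of each library from its group mean (color, log2 scale, saturating at -1 and 1) for the 9 myelin genes (rows) in the 19 libraries (columns, by group and replicate number). Most columns have a single color from top to bottom, and APP control 5 is the column whose rows differ most, from -1.63 for Opalin to 0.07 for Mobp.

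Other oligodendrocyte genes varied with the members. By the same measure, the genes whose group-centred counts were most like the mean of the members were Bcas1 (r = 0.98), Prr5l (0.98), Tmem88b (0.98), Plekhb1 (0.97), Gab1 (0.97), Plekhg3 (0.97), Plekhh1 (0.97), Pde8a (0.96), Tnfaip6 (0.96) and Gjb1 (0.96), over 19 libraries. Bcas1 marks oligodendrocytes that are starting to form myelin, Tmem88b and Plekhb1 belong to mature oligodendrocytes, and Gjb1 is the connexin that joins layers of the sheath. The median r was 0.90 for 19 other myelin and mature oligodendrocyte genes, 0.86 for 6 genes of oligodendrocyte gap junctions and the paranode, 0.82 for 7 genes of myelin lipid synthesis and 0.83 for 9 lineage transcription factors, and it was 0.67 for 8 genes of newly formed oligodendrocytes, Bcas1 among them, whose lowest was -0.17. Myrf (0.95) and Sox10 (0.92), which drive myelin gene transcription, were among the 100 most similar genes. Oligodendrocyte precursors stood apart, with a median of 0.18 over 8 genes and an r of -0.53 for Pdgfra, the growth factor receptor that marks them. Microglia genes had a median of 0.61, astrocyte genes of 0.40, CA1 genes of -0.19 and meningeal and fibroblast genes of -0.37, and their part in the spread was not tested.

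None of the 19 other myelin and mature oligodendrocyte genes, 7 lipid synthesis genes, 6 gap junction and paranode genes, 9 lineage transcription factors or 8 precursor genes passed the test in any of the 3 DESeq2 comparisons, where 4.71%, 0% and 8.95% of all genes did (APP control against WT control, then the transgenic groups, then APP anti-miR-mix against WT control). The counts of list genes that follow stand beside the same shares. Of the 8 genes of newly formed oligodendrocytes, Tns3, an adhesion protein, rose in APP control against WT control (2776 ± 229 to 3300 ± 203 normalized counts, SD, log2 fold change 0.25 ± 0.08 SE, DESeq2 adjusted p = 0.027). In APP anti-miR-mix against WT control 3 of these 8 rose: Tns3 (0.31, adjusted p = 0.000649), Bmp4, a secreted growth factor (0.67, adjusted p = 0.0394), and Itpr2, a calcium channel of the endoplasmic reticulum (0.19, adjusted p = 0.0467). Other cell types also express these genes. Of 5 genes described for oligodendrocytes in amyloid models, the complement gene C4b rose in APP control (5836 ± 2673 to 11867 ± 3122, log2 fold change 1.02, adjusted p = 0.00636). C4b was also higher in APP anti-miR-mix (0.82 against WT control, adjusted p = 0.0258), and B2m, the light chain of MHC class I, rose in APP anti-miR-mix (0.84, adjusted p = 0.0182). Astrocytes and microglia make C4b and B2m as well, and 6 of 8 microglia genes rose in APP control and 7 of 8 rose with APP anti-miR-mix, each against WT control.

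Of the marker lists for other tissue, Pmp22, a myelin gene of Schwann cells that other cells also express, was the only Schwann cell gene of the 4 tested that rose (1192 ± 185 in APP anti-miR-mix, 1133 ± 259 in APP control and 770 ± 103 in WT control, adjusted p = 0.000292 and 0.005 against WT control). Gfap was the only astrocyte gene of 8 that rose against WT control. Against WT control, 8.95% of all genes were called for APP anti-miR-mix and 4.71% for APP control, and counts of 1 gene in a list of 6 or 8 are too small to set apart from these shares. In APP anti-miR-mix against WT control 4 of 8 meningeal and fibroblast genes rose, 3 of 8 endothelial genes rose, 2 of 6 thalamus genes (Prkcd and Lef1) rose and 1 of 6 cortex genes (Fezf2) fell, and in APP control against WT control 1 endothelial gene (Flt1) and 1 thalamus gene (Prkcd) rose. No gene of the choroid plexus, CA1, CA3, dentate gyrus or striatum lists passed in any comparison, and no gene of any list passed when APP anti-miR-mix was set against APP control.

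APP control 5 was the library in which the members parted. Against the median of the other 5 APP control libraries, Opalin was at 306 where the others held 1042 to 1416, a log2 difference of -1.92. Mag was at 3837 against a median of 8961 (-1.22), Mog at 1329 against 2746 (-1.05) and Cnp at 7352 against 14127 (-0.94). For these 4 genes the library was the lowest of all 19, and the share of all genes for which it was the lowest was not counted. Aqp4 and Tmem119, markers of astrocytes and microglia, were also lowest of all 19 in it. Of the 9 members, 7 lay below the other 5 APP control libraries, where 20% of genes did. Ermn (-0.75), Mbp (-0.71) and Cldn11 (-0.52) were also below every other APP control library. Mal was at 7848 against a median of 9091 (-0.21), and Mobp was at 38828 against 38719, a log2 difference of 0.00. The ratio of Mobp to Opalin was therefore 127 in this library and 27.0 to 37.0 in the other 18. At least 0.5 below the median on the log2 scale were 7 of 9 members, where 4.51% of 12765 genes with a mean of at least 100 normalized counts were that low.

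Other oligodendrocyte genes were low in this library too. Of the 19 other myelin and mature oligodendrocyte genes, 14 were at least 0.5 lower in APP control 5, where 4.51% of genes were. For 11 of these 19 genes it was the lowest of all 19 libraries, a count with no share of all genes beside it. Among them was Car2, the carbonic anhydrase of oligodendrocytes (2811 against a median of 6440, -1.20). Others were high: Apod, a lipid carrier (17718 against 8224, 1.11), and Hapln2, a matrix link protein of the node (1923 against 1173, 0.71), were at least 0.5 higher, and Anln was 0.36 higher, all 3 above every other library. Of the 7 lipid synthesis genes, 3 were at least 0.5 lower (median -0.46), from Ugt8a, which makes galactosylceramide, at -1.51 to Scd1, a fatty acid desaturase, at -0.20. Of the 9 lineage transcription factors, 2 were at least 0.5 lower (median -0.34) and 6 lay below the other 5 APP control libraries, with St18 at -1.23, Sox10 at -0.52, Olig1 at -0.44, Myrf at -0.34, Nkx6-2 at -0.10 and Sox8 at 0.01, and the 8 precursor genes had a median of -0.05. In the same library 8 of 8 microglia genes were at least 0.5 lower (median -0.92), 4 of 6 dentate gyrus genes were at least 0.5 lower (median -0.59), 3 of 8 astrocyte genes were at least 0.5 lower (Aqp4 at -0.96, Gfap at -0.94 and Gja1 at -0.51) while 3 others lay above the other APP control libraries, and 6 of 8 meningeal and fibroblast genes (median 0.95), 4 of 8 endothelial genes (median 0.48) and 3 of 6 striatum genes (median 0.47) were at least 0.5 higher, where 2.83% of genes were. Its total of 30742047 counts lay within the range of the others, and the part of these shifts in the myelin genes was not tested. Without APP control 5, the median correlation between members rose from 0.86 to 0.94 and that of Opalin with Mobp to 0.94, and the median log2 fold change of the members became 0.11 in the first comparison and -0.19 between the transgenic groups (APP anti-miR-mix against APP control), still with 0 of 9 called.

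**Figure D3:**
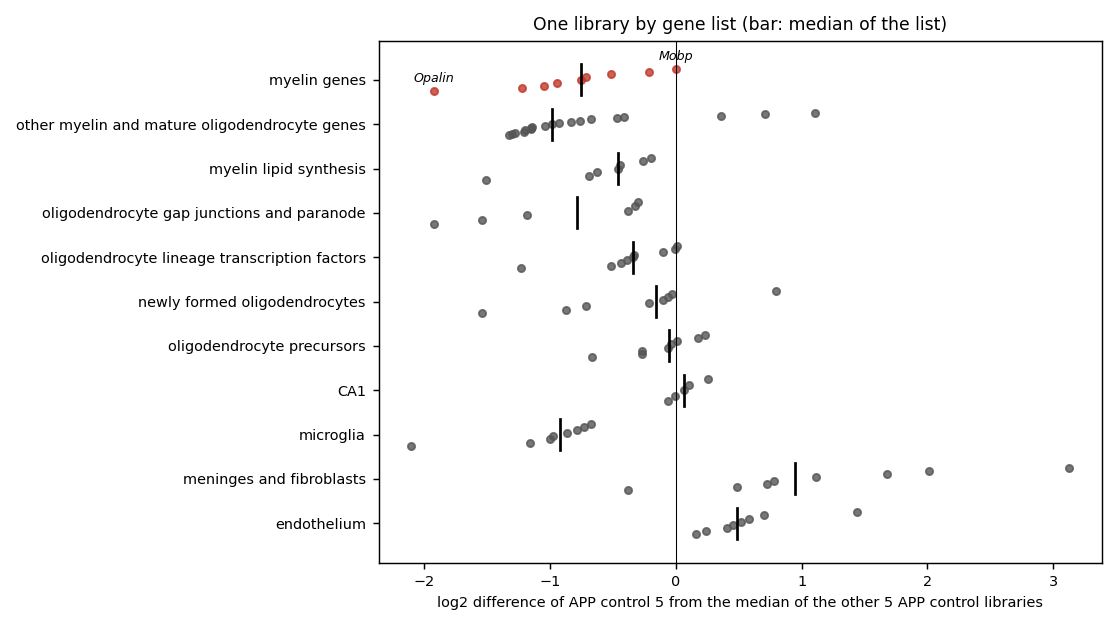
Difference of APP control 5 from the median of the other 5 APP control libraries (x axis, log2 scale) for the tested genes of 11 fixed lists (rows), 1 point per gene and a bar at the median of the list. The myelin genes (red) spread from -1.92 for Opalin to 0.00 for Mobp, the precursor and CA1 lists are centred near 0 (-0.05 and 0.07), and the microglia list lies at -0.92.

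The comparisons were repeated with that shared level as a term, a choice made after the data were examined. The level was the mean log2 normalized count of the 19 other myelin and mature oligodendrocyte genes, none of which is a member, and it was alike between groups (11.13 ± 0.32 in APP anti-miR-mix, 11.20 ± 0.32 in APP control and 11.18 ± 0.26 in WT control, SD). These fits compare a member with what its library's level would give, and they cannot show a change that all oligodendrocyte genes share. The standard errors of the members fell from 0.15 to 0.28 without the term to 0.04 to 0.13 with it. With the level alone, 0 of 9 members were called in any comparison, where 5.8%, 0% and 11.3% of all genes were. Without APP control 5 this model called 3 of 9 members in APP anti-miR-mix against WT control, Cldn11 higher (0.19, adjusted p = 0.0161) and Mal (-0.14, adjusted p = 0.00612) and Opalin (-0.22, adjusted p = 0.000627) lower, where 12.3% of all genes were called, 7.15% higher and 5.14% lower. It called 0 of 9 in the other 2 comparisons, where 4.26% and 0.00515% of all genes were. With all libraries, at an unadjusted p under 0.05 were Cnp in APP control against WT control, Mobp between the transgenic groups, and Cldn11 and Ermn in APP anti-miR-mix against WT control, where 2862, 784 and 4186 of all genes were. The Mobp estimate of -0.23 in that model became -0.03 without APP control 5.

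A second term was a whole number from 1 to 5 that the deposited log2 table carries for each library. The table differs from the log2 scaled counts by a single gene profile multiplied by this number, and its meaning is not given in the sources used here. Within each group the number never fell as the replicate number rose. The number averaged 2.83, 2.83 and 2.71 in WT control, APP control and APP anti-miR-mix, so it was spread alike over the groups. With level and number in the model, the number itself was called for 5 of 9 members, where 32.4% of all genes were. Per unit of the number, Ermn rose by 0.11 ± 0.02 (log2, SE, DESeq2 adjusted p = 2.85e-06) and Cldn11 by 0.07 ± 0.02 (adjusted p = 0.00125), while Mag was at -0.08 ± 0.02 (adjusted p = 0.000171), Cnp at -0.05 ± 0.01 (adjusted p = 0.000696) and Mbp at -0.05 ± 0.01 (adjusted p = 0.00324). The ratio of Ermn to Mag was 0.233 to 0.268 in the 3 libraries with the number 1, 0.203 to 0.284 in the 5 with the number 2 and 0.311 to 0.391 in the 5 with the number 4.

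In that model Cldn11 was higher in APP anti-miR-mix than in WT control, by 0.20 ± 0.05 (SE, 95% interval 0.10 to 0.29, DESeq2 adjusted p = 0.00139), at equal oligodendrocyte level. Cnp (-0.11, interval -0.18 to -0.03, adjusted p = 0.0272) and Ermn (-0.16, interval -0.27 to -0.05, adjusted p = 0.0282) were lower. Of all genes, 16% were called in this comparison, 8.19% higher and 7.82% lower, so 1 of 9 members higher is near the background, and 2 of 9 lower is a small count. In APP control against WT control Cnp was lower (-0.13, interval -0.20 to -0.05, adjusted p = 0.0129), where 8.55% of genes were called and 3.26% were lower. Between the transgenic groups 0 of 9 members were called, where 0.00518% of all genes were, with Mobp at -0.22 and an unadjusted p of 0.0294 in DESeq2, where 1161 genes were under 0.05. Without APP control 5 Mobp was at -0.03 (DESeq2 adjusted p = 0.972). Cldn11 was at 0.08 there, with an interval of -0.02 to 0.18. Without APP control 5 it was at 0.13, with an interval of 0.04 to 0.23 (DESeq2 unadjusted p = 0.00377, adjusted p = 0.795), and Opalin was at -0.15 (unadjusted p = 0.00203, adjusted p = 0.783), so neither passed the adjusted threshold.

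The edgeR quasi-likelihood test with the same terms called only Cldn11 of the 9 in APP anti-miR-mix against WT control (0.21, adjusted p = 0.00746), where 12.6% of all genes were called, and Cnp (-0.10, adjusted p = 0.118) and Ermn (-0.15, adjusted p = 0.0536) lost their calls. It called 0 of 9 for APP control against WT control, where 6.21% of genes were called and 3 members were at an unadjusted p under 0.05, with Cnp at an adjusted p of 0.0774. Between the transgenic groups it called 0 of 9 and 0% of all genes. In a simulated data set, DESeq2 calls with a known level as a term, and no number term, held more false positives than the adjusted p allows. The model with level and number was not itself simulated, so its own rate of false calls is not known.

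When each of the 19 libraries was left out of the DESeq2 model with level and number in turn, Cldn11 stayed called in APP anti-miR-mix against WT control in all 19 fits, with estimates of 0.17 to 0.21. Cnp was called in 11 of the 19 fits of that comparison and Ermn in 12. These fits share most of their libraries, and how many of all genes stayed called across them was not counted. In APP control against WT control, Cnp was called in 17 of 19, and not without APP control 5 (adjusted p = 0.0575) or WT control 6, and Ermn was called in 1 of 19. Without APP control 5, 6 of 9 members were called in APP anti-miR-mix against WT control, where 17.1% of all genes were, 8.72% higher and 8.42% lower: Cldn11 higher (0.20, adjusted p = 6e-05), and Opalin (-0.22, adjusted p = 2.64e-05), Mal (-0.14, adjusted p = 0.000292), Cnp (-0.11, adjusted p = 0.00203), Ermn (-0.16, adjusted p = 0.0323) and Mag (-0.10, adjusted p = 0.0439) lower. The edgeR test without this library called 4 of the 6 (Cldn11, Opalin, Mal and Cnp, adjusted p = 0.00227, 0.00186, 0.0127 and 0.0401) but not Ermn (0.0543) or Mag (0.108), where 14.7% of all genes were called. In DESeq2 Opalin, Mal and Mag were called in that fit alone of the 19, so their calls rest on leaving out this library. APP control 5 belongs to neither group of this comparison and enters it only through what the 3 groups share in the model, such as the estimate of the spread. The highest standard error of a member in this comparison was 0.11 with APP control 5 and 0.06 without it. Mal was then also lower in APP control against WT control (-0.12, adjusted p = 0.0119), where 5.83% of genes were called and 1.65% were lower, but not by edgeR (adjusted p = 0.0827, with 4.48% of genes called). Between the transgenic groups no member was called in any of the 19 fits, and 0.00515% of all genes were called without APP control 5.

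**Figure D4:**
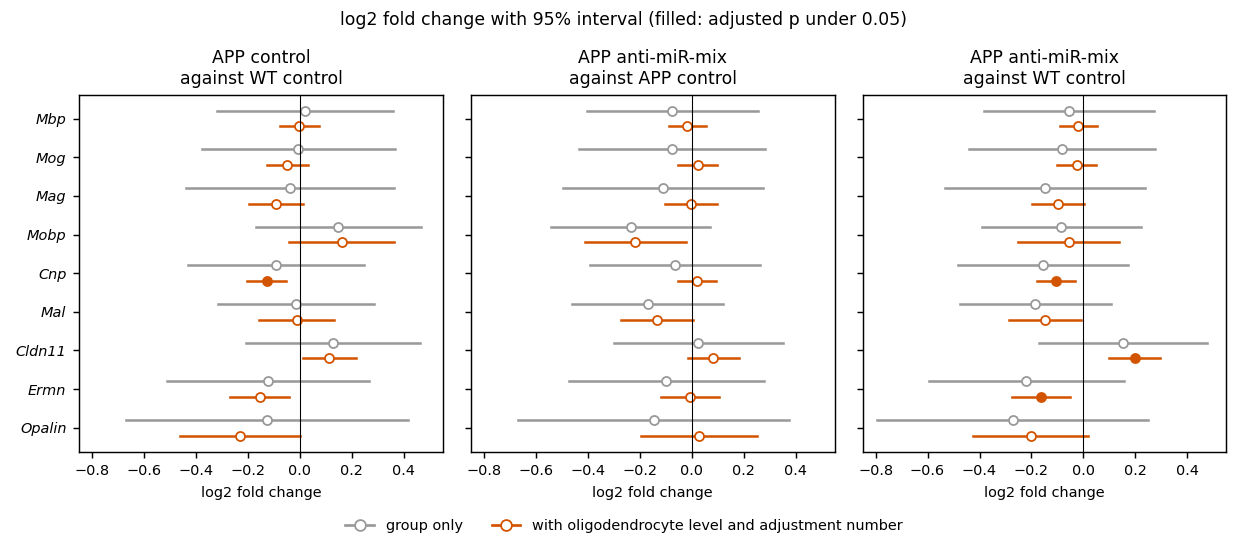
log2 fold change of each myelin gene with its 95% interval (x axis) in the 3 comparisons, from the model with group alone (gray) and the model with the oligodendrocyte level and the adjustment number as further terms (orange), with filled points for an adjusted p under 0.05. All gray intervals cross 0, the orange intervals are narrower, and the filled points are Cnp in the first panel and Cnp, Cldn11 and Ermn in the third.

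The ratio of Cldn11 to Ermn was also examined in single libraries. This pair was picked after its values were seen, so the ratio is a description with no test. It was 1.76, 1.83 and 1.94 (lowest, median, highest) in WT control and 2.17, 2.37 and 2.51 in APP anti-miR-mix, with no overlap. In APP control it ran from 1.79 to 2.67 with a median of 2.22, so this group overlapped both others. Of the 36 ratios that 9 genes allow, 4 (11.1%) did not overlap when APP anti-miR-mix was set against WT control, 3 of them with Cldn11, and 0% of the 36 did so in the other 2 comparisons. Ratios of other genes were not examined, so no background share stands beside this count, and 3.42% of single genes did not overlap in the comparison with 4 such ratios.

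**Figure D5:**
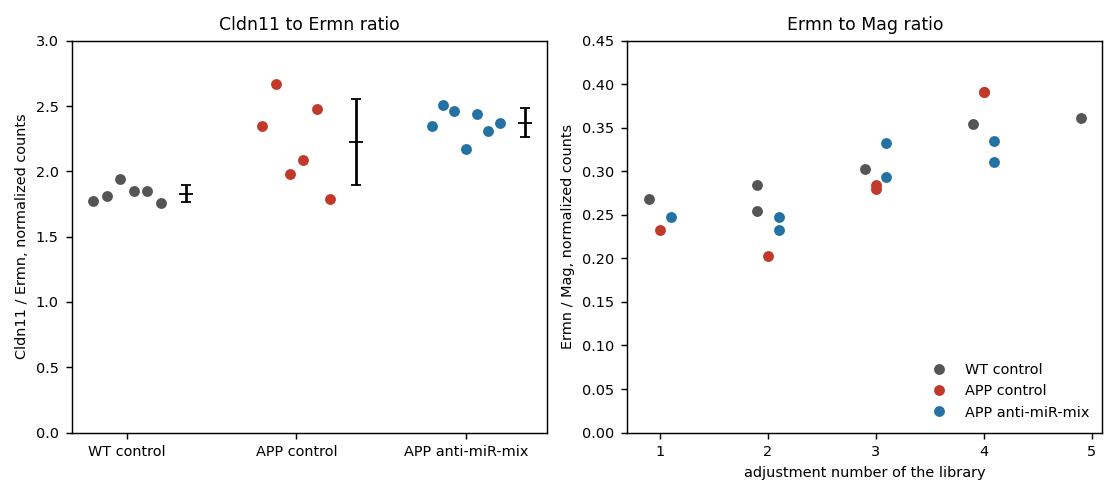
Left, ratio of Cldn11 to Ermn normalized counts (y axis) in each library by group, with mean and SD in black, where the WT control libraries (1.76 to 1.94) lie below all APP anti-miR-mix libraries (2.17 to 2.51). Right, ratio of Ermn to Mag (y axis) against the adjustment number of the library (x axis), colored by group, which lies at 0.233 to 0.268 at the number 1, 0.203 to 0.284 at 2, 0.28 to 0.333 at 3, 0.311 to 0.391 at 4 and 0.361 in the library with the number 5.

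Reads of 3 members could be shared with an overlapping gene. Cnp (chr11:100574904-100591729) shares exonic positions with Dnajc7 on the other strand, Ermn (chr2:58045113-58052864) with Galnt5 on the other strand and Mobp (chr9:120149707-120181484) with Gm38642 on the same strand (mm10). The strand setting of the counting is not given in the sources used here, so counts at those positions cannot be assigned with certainty.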

How the data were processed

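RNA of CA1 from 19 mouse libraries was sequenced as 50-nt single reads after poly(A) selection. The authors aligned the reads to mm10 with STAR 2.5.2b and deposited raw counts per gene from featureCounts (Subread 1.5.1), and a log2 table of normalized expression for 18825 genes. The annotation release and strand setting of the counting are not given in the sources used here. Gene symbols came from GENCODE M21. Counts were analysed with DESeq2 1.42.0 (R 4.3.3) over all 19 libraries, for genes that reached 5 counts in 50% or more of the libraries, with unshrunken fold changes and Benjamini-Hochberg adjustment at 0.05. edgeR 4.0.16 and limma 3.58.1 (on the deposited log2 table) were alternatives. Scripts were tested on simulated data. Log2 levels used a pseudocount of 1. Named genes were the 9 members, up to 5 called genes of each list and the 10 most similar genes; genes named for APP control 5, for the ratios and beside likeness were chosen after their values were seen. The members and lists were chosen with earlier results of these data known. Some genes that this rule or the lists hold are not reported here. Replicate numbers did not pair the libraries.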

Additional observations from a re-analysis of the deposited data

Results flagged for a closer look

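In 48 groups of 6 or 7 libraries (the members and the ratios described), 4 held a library far from the others by Dixon's test, where chance gives about 2.4. Opalin was at 306.4 normalized counts in APP control 5, and the ratios of Mobp to Opalin (127) and of Opalin to Mbp (0.00453) stood out in the same library. Mobp stood out in APP control 1, at 28272. The ratios use the same Opalin counts and are not separate evidence.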

How the results depend on the processing

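With other tests, filters, scalings, covariates and subsets of libraries, apart from the fits with the oligodendrocyte level, 0 of 9 members were called in any comparison, and of 783 values of single members 49 had the other sign with neither value called. For all genes, APP anti-miR-mix against APP control gave 3 calls with only the 2 groups compared and 1 with the replicate block. With the oligodendrocyte level and the number as terms, chosen after seeing the data, calls over all genes were 1650, 1 and 3090 (APP control against WT control, APP anti-miR-mix against APP control, APP anti-miR-mix against WT control), with 1, 0 and 3 members. Without APP control 5 this model gave 1, 0 and 6 members, and 1 and 3326 genes in the last 2 comparisons. The level alone without APP control 5 gave 3 members in APP anti-miR-mix against WT control and 1 gene between the transgenic groups. With level and number in edgeR, 1 member was called in APP anti-miR-mix against WT control, and without APP control 5 it was 4 members and 2844 genes. The causes of these differences were not tested. In the model with group alone, leaving out each library in turn gave 666 to 1209, 0 to 3 and 1169 to 2012 genes and 0 to 0 members, with member medians of -0.09 to 0.11, -0.19 to -0.01 and -0.22 to -0.03.

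Same-numbered libraries correlated at -0.125 to 0.347 over 18 pairs, and 5 libraries correlated best with their own number, so the numbers were not read as a pairing. The replicate block gave member medians of -0.01, 0.01 and -0.03 with no member called, and 5 of 9 members above 0 in APP anti-miR-mix compared with APP control, where 1 of 9 was without it. By Spearman's rho, 5 of the 10 most similar genes were shared. The lowest normalized count of any member was 306.4, and the within-group SD of log2 counts was 0.29 to 0.54. What limited the calls was not tested.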
